A study of Mus musculus with 15 samples.

Results

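Mitosis genes encode the machinery with which a cell enters mitosis, builds the spindle, separates its chromosomes and divides in 2, and 48 of them were followed here through a mouse model of lung dysplasia. Membership goes by gene name and no measured value enters the rule, but the list was chosen with earlier results of these data known. Each gene was read from 1 probe set of the array, the one annotated to that gene alone with the highest mean signal over the 15 arrays. Such a probe set was found for 47 of the 48 genes, out of 18193 genes on the array with one. The exception was Ccnb1, which encodes cyclin B1 and was not analysed here. The mean signal over the 15 arrays was above 100, the limit set for testing, in 42 of the 47 genes. Cdc25c, Cenpe, Kif4, Ndc80 and Ttk were below it.

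The arrays hold 3 groups of 5 laser-microdissected lung samples. Dysplasia is epithelium of dysplastic foci from SP-C/c-raf transgenic mice, in which the promoter of surfactant protein C directs the c-Raf-1 kinase to respiratory epithelium. Transgenic is morphologically unaltered lung tissue from mice of the same line, aged 5 to 7 months like those of dysplasia, and the methods state that both tissues came from the same animals. Non-transgenic is lung tissue of littermates without the transgene, aged 7 to 10 months, so that in any comparison with this group age and genotype cannot be told apart. The transgenic line was first bred as a C57BL/6/DBA/2 hybrid and then kept in C57BL/6 for 5 generations or more. By the methods, tissue for a sample was pooled within 1 animal. The deposited signal is scaled by the authors to a target of 500 per array, which gave a trimmed mean of 500 on every array, and between 44.1% and 49.9% of the probe sets of an array read above 100. Transgenic 2 has conflicting labels, unaltered tissue in its title and tumor in another entry, and dysplasia 4 carried female and male transcripts side by side. Both were kept, and the counts without them are given beside the first result, for dysplasia against transgenic lung only.

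Before a cell divides, cyclin B and cyclin A bind Cdk1 and switch it on, and polo-like and Aurora kinases prepare the spindle poles and chromosomes. Kinetochores then attach each chromosome to microtubules while the spindle checkpoint holds back the anaphase-promoting complex, which with Cdc20 and Ube2c marks cyclin B and securin for destruction once every chromosome is attached. Transcripts of this machinery are kept low in resting cells by the DREAM repressor complex and rise late in the cycle, when B-Myb and FoxM1 act with the MuvB core. Most cells of the adult lung are resting, so that these transcripts are commonly read as a sign of dividing cells.

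Transcripts of the mitosis genes were higher in dysplasia than in either unaltered tissue. Compared with transgenic lung, 39 of the 42 tested genes were higher in dysplasia and 0 were lower at an adjusted p under 0.05 (limma, Benjamini-Hochberg over all 21658 tested probe sets), while 15.3% of all tested probe sets were called higher and 17.9% lower. Compared with non-transgenic lung, 40 were higher and 1, Ncaph, was lower, beside 20.7% of all tested probe sets called higher and 23.3% lower. The median log2 change of the tested genes, a difference in log2(signal + 50), was 1.03 against transgenic and 1.35 against non-transgenic lung, and over all tested probe sets it was -0.01 and -0.03. Without dysplasia 4 and transgenic 2, 39 genes were higher and 0 lower against transgenic lung. In tissue pieces such as these, more dividing cells and more RNA of these genes per cell cannot be told apart.

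The limit on the mean signal includes the dysplasia arrays, and 9 of the 42 tested genes were above 100 only through them. Of the other 33 genes, whose mean over the 10 arrays outside dysplasia was above 100, 31 were higher in dysplasia than in transgenic lung and 0 lower, and 32 were higher and 1 lower against non-transgenic lung. With no limit on signal all 47 measured genes entered the fit, and 43 were higher and 0 lower against transgenic lung, where 8.04% of all 45037 probe sets were called higher and 9.82% lower. Against non-transgenic lung 43 of 47 were higher and 1 lower, beside 10.7% and 14.1% of all probe sets. Counts by functional group in the following paragraphs come from this fit without a limit, and the statistics of single genes from the tested 42 unless stated. All 5 dysplasia arrays exceeded all 5 transgenic arrays in 42 of the 47 genes and all 5 non-transgenic arrays in 43. Among the 42 tested genes these counts were 38 and 39, beside 11.8% and 15.8% of all tested probe sets separated in that way. The ratio of group means was 0.86 to 3.60 (median 2.26) against transgenic lung, and 0.68 to 5.32 (median 2.97) against non-transgenic lung.

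**Figure D1:**
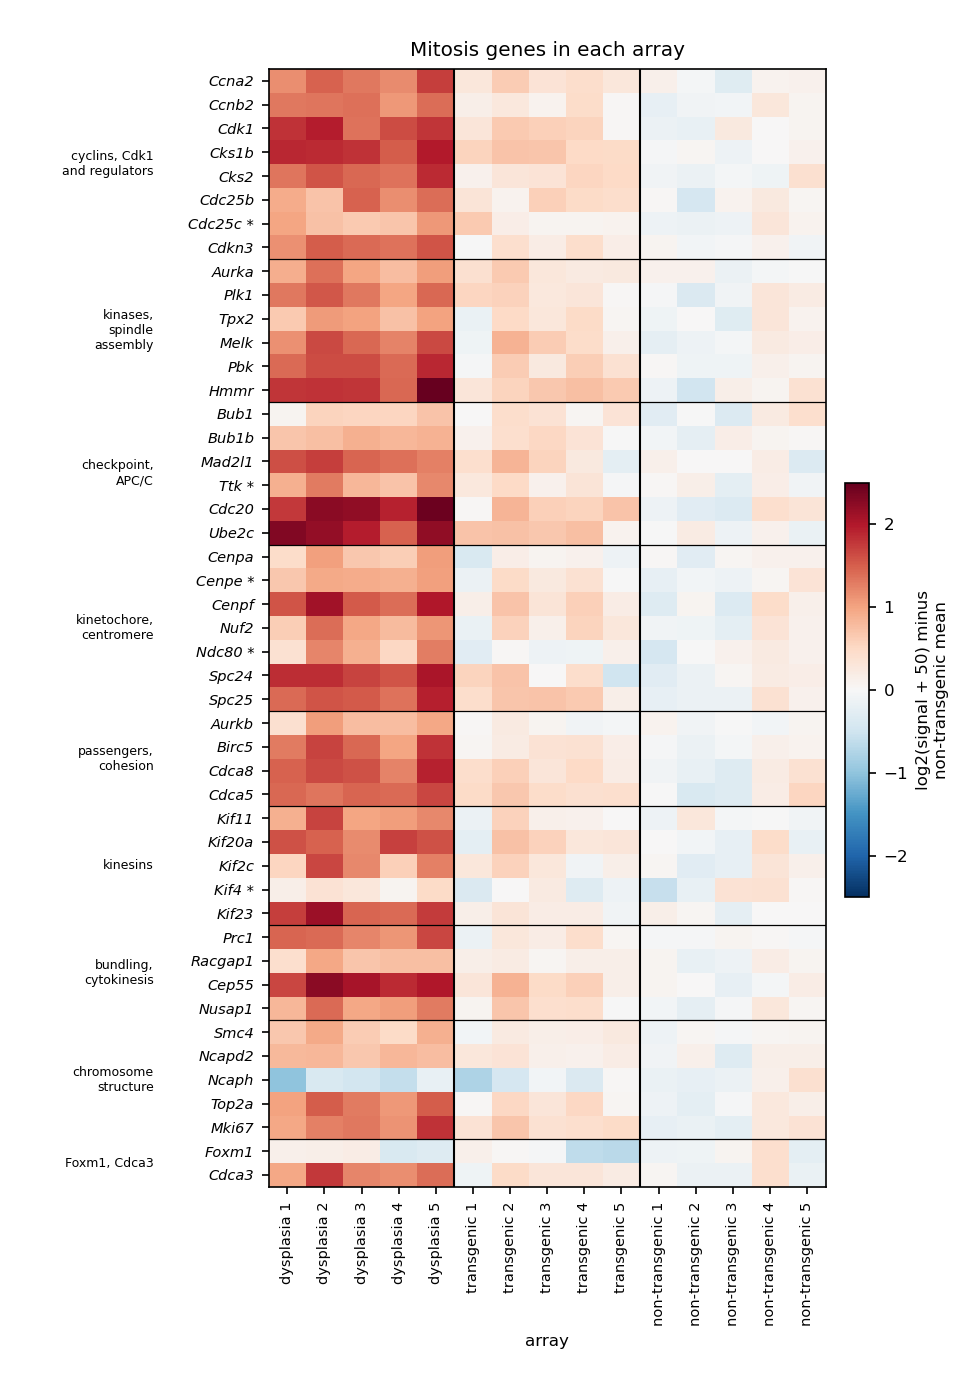
Each of the 47 measured mitosis genes (rows, by functional group) in each of the 15 arrays (columns), as log2(signal + 50) minus the mean of the 5 non-transgenic arrays. An asterisk marks the 5 genes below the signal limit, and the dysplasia columns are above the other columns in nearly every row, with Ncaph and the Foxm1 probe set used here as the clearest exceptions.

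**Figure D2:**
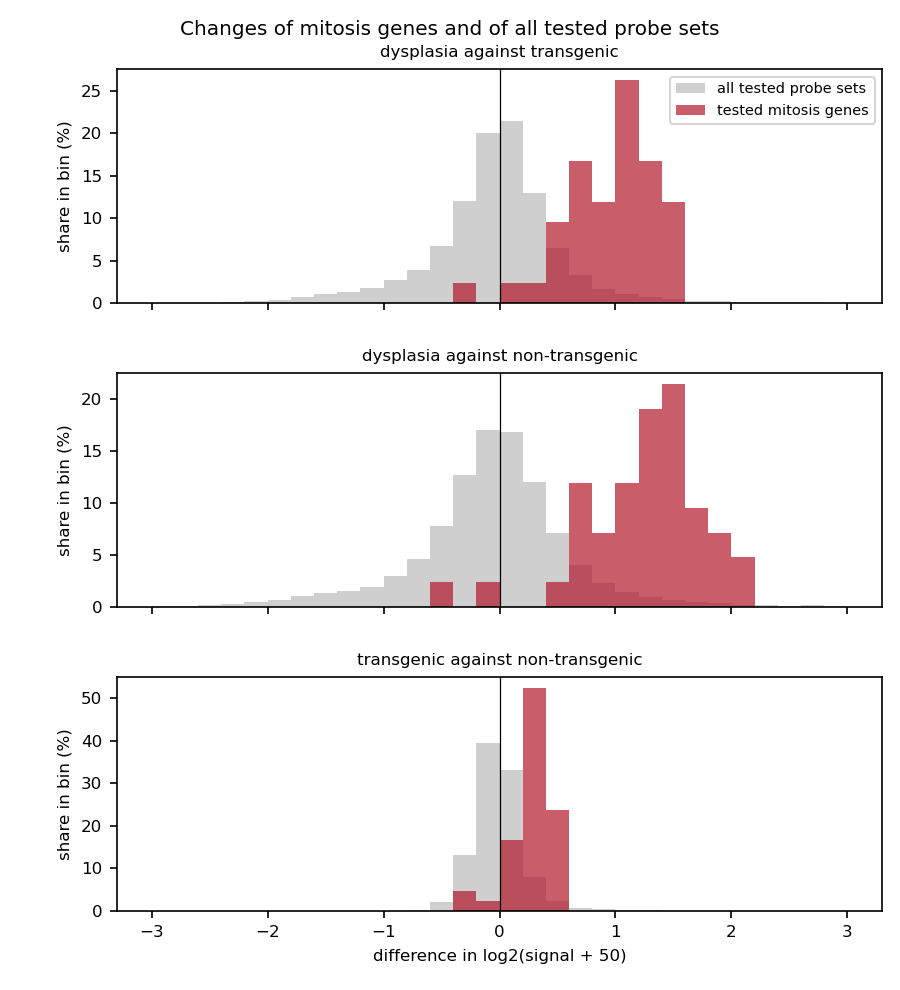
Share of genes or probe sets (vertical axis, percent) by log2 change (horizontal axis, bins of 0.2) for the 42 tested mitosis genes in red and all 21658 tested probe sets in grey. The red bars lie to the right of 0 for all but Ncaph against transgenic lung and all but Ncaph and Foxm1 against non-transgenic lung.

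Promoters of late cell cycle genes often carry a short element called CHR, TTTGAA on one strand and TTCAAA on the other, to which the MuvB core binds, and CCAAT boxes, read as ATTGG on the other strand, to which NF-Y binds. RefSeq promoters of 300 bases, from 250 before to 50 after the start in build GRCm38.p6, were at hand for 39 of the 48 genes, Ccnb1 included. Aurkb, Ccna2, Cdc25c, Foxm1, Kif20a, Pbk, Smc4, Spc24 and Tpx2 had none. The CHR letters stood in 28 of the 39, compared with 20.2% of all 27025 genes with a promoter in the table, CCAAT in 29 compared with 41.1%, and both in 24 compared with 7.97%. A CHR match began within 50 bases of the start in 24 of the 39 genes and in 5.72% of all genes. A match is only a run of letters, and no factor was measured at these sites. The 250 bases before the start are printed for the 5 genes in the table with the smallest p in either comparison of dysplasia, because their signals separate the groups most clearly, with CHR and CCAAT matches on either strand in capitals.
Cks1b, chr3:89418292-89418541, minus strand: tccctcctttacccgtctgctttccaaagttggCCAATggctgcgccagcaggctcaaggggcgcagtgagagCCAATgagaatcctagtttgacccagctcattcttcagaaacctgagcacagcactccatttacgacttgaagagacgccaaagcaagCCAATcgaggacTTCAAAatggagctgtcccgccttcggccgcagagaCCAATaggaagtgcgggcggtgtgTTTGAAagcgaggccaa
Cep55, chr19:38054791-38055040, plus strand: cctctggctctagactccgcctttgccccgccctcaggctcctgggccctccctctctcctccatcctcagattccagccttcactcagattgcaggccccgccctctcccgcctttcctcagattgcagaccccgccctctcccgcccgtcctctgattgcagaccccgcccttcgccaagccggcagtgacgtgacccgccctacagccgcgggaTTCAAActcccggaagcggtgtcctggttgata
Cdkn3, chr14:46760291-46760540, plus strand: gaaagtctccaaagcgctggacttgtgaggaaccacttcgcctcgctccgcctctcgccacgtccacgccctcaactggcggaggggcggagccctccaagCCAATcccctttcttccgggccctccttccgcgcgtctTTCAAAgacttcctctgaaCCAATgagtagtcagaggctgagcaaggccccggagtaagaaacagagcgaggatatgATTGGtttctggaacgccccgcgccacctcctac
Cdk1, chr10:69352913-69353162, minus strand: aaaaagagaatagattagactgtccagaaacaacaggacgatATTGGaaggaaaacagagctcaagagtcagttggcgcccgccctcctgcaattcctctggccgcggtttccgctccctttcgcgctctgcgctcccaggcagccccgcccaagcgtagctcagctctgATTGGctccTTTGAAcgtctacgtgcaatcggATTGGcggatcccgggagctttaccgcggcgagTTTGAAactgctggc
Ube2c, chr2:164769679-164769928, plus strand: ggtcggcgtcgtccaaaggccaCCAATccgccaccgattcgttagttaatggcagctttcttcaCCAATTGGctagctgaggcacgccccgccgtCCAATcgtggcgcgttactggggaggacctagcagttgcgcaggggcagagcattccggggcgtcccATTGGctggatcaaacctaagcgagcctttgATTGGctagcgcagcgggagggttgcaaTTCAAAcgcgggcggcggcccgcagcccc
The CHR matches began 77 and 17 bases before the start in Cks1b, 71 and 15 in Cdk1, 33 in Cep55, 29 in Ube2c and 111 in Cdkn3. For Cep55 the table has 2 starts, and the one with a match upstream is printed, which holds no CCAAT in these 250 bases. Ube2c has 6 CCAAT matches, 2 of them overlapping, Cks1b has 4, and Cdk1 and Cdkn3 have 3 each.

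Among the cyclins, Cdk1 and their regulators, all 8 measured genes were higher in dysplasia in both comparisons. Cks1b encodes a small subunit of Cdk complexes that also helps to mark the inhibitor p27 for destruction, and it had the smallest p of all mitosis genes in each of the 3 comparisons. Its signal was 7202, 7072, 6865, 5591 and 7682 in dysplasia 1 to 5, 2832, 3158, 3119, 2727 and 2695 in transgenic 1 to 5 and 1877, 1975, 1752, 1923 and 2073 in non-transgenic 1 to 5. Dysplasia 4 was the lowest of its group and still far above every unaltered sample, and the transgenic arrays all lay above the non-transgenic ones. The ratio of means was 2.37 against transgenic (log2 change 1.22, standard error 0.10, adjusted p = 9.89e-06, limma) and 3.58 against non-transgenic lung (log2 change 1.81, standard error 0.10, adjusted p = 2.62e-07).

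Ccnb2, which encodes cyclin B2, an activator of Cdk1, read 544, 553, 567, 453 and 574 in dysplasia, 214, 235, 203, 278 and 191 in transgenic lung and 156, 175, 176, 239 and 199 in non-transgenic lung, in array order. The groups of unaltered tissue overlapped with each other and not with dysplasia, and the change against transgenic lung (log2 change 1.11, standard error 0.11, adjusted p = 2.24e-05) was among the 5 with the smallest p. Ccna2, which encodes cyclin A2 of S phase and early mitosis, read 712, 896, 792, 721 and 1076 in dysplasia, 365, 475, 381, 413 and 365 in transgenic lung and 323, 278, 227, 313 and 318 in non-transgenic lung, without overlap between any of the groups. Its log2 change was 0.97 against transgenic and 1.37 against non-transgenic lung, and a second Ccna2 probe set above the limit gave 0.61 and 0.82.

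Cdkn3, a phosphatase that removes the activating phosphate of Cdk1 and Cdk2, gave 166, 232, 212, 201 and 245 in dysplasia, 47.4, 82.6, 61.6, 84.4 and 60.8 in transgenic lung and 53.1, 43.8, 47.1, 56.1 and 43.3 in non-transgenic lung. Every unaltered sample lay under 100 and every dysplasia sample above it, so the size of a ratio over that base is not firm (log2 change 1.40, standard error 0.10, adjusted p = 1.29e-06 against non-transgenic lung). Cdk1, the kinase that drives entry into mitosis, averaged 557 ± 92.0 in dysplasia, 201 ± 42.6 in transgenic lung and 135 ± 22.9 in non-transgenic lung (SD, n = 5 each, here and in the means that follow). Cks2, the second Cks subunit, averaged 2996 ± 482 in dysplasia, 1311 ± 162 in transgenic lung and 1018 ± 183 in non-transgenic lung. Cdc25b, a phosphatase that activates Cdk1, averaged 1752 ± 388 in dysplasia, 1007 ± 134 in transgenic lung and 762 ± 127 in non-transgenic lung, with the smallest log2 changes of the tested genes in this group, 0.75 and 1.14. Cdc25c, a related phosphatase below the signal limit, had no signal above 78.5 on any array, and its values in dysplasia, 45.2 to 78.5, lay above 13.4 to 44.6 in transgenic lung and 4.72 to 24.8 in non-transgenic lung.

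All 6 mitotic kinases and spindle assembly factors were higher in dysplasia in both comparisons, with a median log2 change of 1.0 against transgenic and 1.37 against non-transgenic lung. Pbk, a kinase active in mitosis, gave 854, 1003, 994, 851 and 1193 in dysplasia, 280.2, 474, 349, 468 and 388 in transgenic lung and 294, 263, 262, 321 and 305 in non-transgenic lung. The dysplasia arrays lay above all others, and the unaltered groups overlapped (log2 change 1.60, standard error 0.11, adjusted p = 9.82e-07 against non-transgenic lung). Hmmr, a microtubule-binding protein of the spindle poles that is also a receptor for hyaluronan, gave 465, 473, 465, 353 and 862 in dysplasia, 136, 169, 188, 201 and 186 in transgenic lung and 87.4, 57.9, 116, 106 and 146 in non-transgenic lung, and dysplasia 5 stood far above the rest of its group. Its ratio was 2.98 against transgenic and 5.10 against non-transgenic lung.

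The other kinases moved in the same direction by smaller or similar amounts. Plk1, the polo-like kinase of spindle and centrosome maturation, averaged 311 ± 48.8 in dysplasia, 133 ± 27.5 in transgenic lung and 95.1 ± 25.8 in non-transgenic lung. Aurka, the Aurora kinase of the spindle poles, averaged 194 ± 38.9 in dysplasia, 104 ± 19.9 in transgenic lung and 69.4 ± 8.72 in non-transgenic lung, and Tpx2, its activator on spindle microtubules, 166 ± 27.0 in dysplasia, 86.9 ± 26.0 in transgenic lung and 66.3 ± 18.6 in non-transgenic lung. Melk, a kinase of proliferating and progenitor cells, averaged 245 ± 48.1 in dysplasia, 97.2 ± 38.6 in transgenic lung and 59.3 ± 14.2 in non-transgenic lung. In Aurka, Tpx2 and Melk the unaltered groups had means near or under 100, so the ratio of means over such a base is not firm.

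Of the spindle checkpoint and anaphase-promoting complex group, 5 of 6 genes were higher in dysplasia in each comparison. Ube2c, the ubiquitin-conjugating enzyme of the anaphase-promoting complex, gave 1452, 1323, 1121, 784 and 1358 in dysplasia, 443, 453, 429, 458 and 269 in transgenic lung and 248, 297, 225, 277 and 218 in non-transgenic lung. Dysplasia 4 was the lowest dysplasia array and transgenic 5 the lowest transgenic one, within the range of non-transgenic lung. Cdc20, the activator of the complex at the start of anaphase, averaged 3222 ± 603 in dysplasia, 1049.6 ± 215 in transgenic lung and 709 ± 186 in non-transgenic lung. Its log2 changes of 1.58 and 2.12 were the highest of the tested genes in both comparisons. Ube2c followed in the second, with 2.03, and had 1.44 in the first. A second Cdc20 probe set above the limit gave log2 changes of 1.27 and 1.45, so the rank of Cdc20 depends on the probe set.

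The checkpoint proteins themselves differed in how far they moved. Mad2l1, which encodes the Mad2 protein that holds Cdc20 in check, averaged 1341 ± 183 in dysplasia, 604 ± 175 in transgenic lung and 447 ± 65.9 in non-transgenic lung. Bub1b, which encodes BubR1 of the same inhibitory complex, had a log2 change of 0.54 against transgenic and 0.81 against non-transgenic lung. Ttk, the kinase Mps1 at the top of the checkpoint, was below the signal limit and read 115 to 198 in dysplasia, 48.9 to 92.3 in transgenic lung and 34.8 to 63.7 in non-transgenic lung. Bub1, the kinase that recruits the other checkpoint proteins to kinetochores, read 181, 273, 268, 267 and 309 in dysplasia, 171, 246, 229, 177 and 226 in transgenic lung and 129, 168, 122, 205 and 244 in non-transgenic lung. Its groups overlapped in both comparisons, its log2 change against transgenic lung was 0.25 (95% interval -0.05 to 0.55, adjusted p = 0.198, limma), and against non-transgenic lung it was 0.48 (adjusted p = 0.0372), a call that was lost without a signal limit (adjusted p = 0.0576). It was also lost on leaving out any of dysplasia 2, 3, 4 and 5 or non-transgenic 1, 2 and 3 (adjusted p = 0.0620 to 0.0912).

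All 7 kinetochore and centromere genes were higher in dysplasia in both comparisons. Spc24, a subunit of the Ndc80 complex that grips microtubules, gave 483, 479, 424, 390.2 and 560.0 in dysplasia, 166, 192, 98.2, 149.8 and 54.7 in transgenic lung and 71.9, 84.0, 103, 119.6 and 116 in non-transgenic lung. Transgenic 5 was the lowest of all 15 arrays, and no dysplasia array came near the unaltered ones (log2 change 1.80, standard error 0.12, adjusted p = 1.08e-06 against non-transgenic lung). Its partner Spc25 gave 500, 561, 548, 476 and 738 in dysplasia, 228, 280.4, 288, 273 and 178 in transgenic lung and 128, 135, 136, 217 and 172 in non-transgenic lung, with log2 changes of 1.04 and 1.57.

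The remaining subunits of that complex had weaker signals. Nuf2 averaged 273 ± 67.7 in dysplasia, 149 ± 41.1 in transgenic lung and 114 ± 27.4 in non-transgenic lung. Ndc80 itself was below the signal limit, with 63.6 to 162 in dysplasia, 21.6 to 45.4 in transgenic lung and 15.5 to 52.4 in non-transgenic lung. Cenpf, a large protein of the outer kinetochore, averaged 475 ± 114 in dysplasia, 157 ± 36.8 in transgenic lung and 109.7 ± 38.1 in non-transgenic lung. Cenpe, a kinesin of the kinetochore below the signal limit, read 101 to 144 in dysplasia, 35.5 to 82.5 in transgenic lung and 32.5 to 70.3 in non-transgenic lung. Cenpa, the histone H3 variant that marks centromeres, averaged 594 ± 115 in dysplasia, 319.5 ± 52.9 in transgenic lung and 327 ± 40.1 in non-transgenic lung, and its log2 change of 0.79 against transgenic and 0.76 against non-transgenic lung was nearly the same in both.

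The chromosomal passengers and the cohesion factor Cdca5 were higher in dysplasia in 4 of 4 genes in both comparisons. Cdca5, which encodes sororin, the protector of sister chromatid cohesion, gave 427, 392, 434, 416 and 509 in dysplasia, 195, 229, 192, 181 and 184 in transgenic lung and 123, 84.6, 90.6, 149 and 204 in non-transgenic lung. Its spread in dysplasia and transgenic lung was small beside the difference (log2 change 0.98, standard error 0.09, adjusted p = 2.10e-05 against transgenic lung). The passenger complex corrects faulty attachments and guides cytokinesis. Its subunit Birc5, or survivin, averaged 519 ± 124 in dysplasia, 192 ± 23.6 in transgenic lung and 155 ± 15.4 in non-transgenic lung, and its subunit Cdca8, or borealin, 964 ± 174 in dysplasia, 397 ± 48.5 in transgenic lung and 292 ± 69.8 in non-transgenic lung. The kinase of the complex, Aurkb, averaged 172 ± 36.5 in dysplasia, 80.9 ± 10.9 in transgenic lung and 77.3 ± 6.95 in non-transgenic lung, so its unaltered tissues lay under 100.

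Of the 5 kinesin motors 4 were higher in dysplasia in both comparisons. Kif23, which encodes a motor of the centralspindlin complex needed to divide the cell body, gave 558, 766, 457, 439 and 569 in dysplasia, 153, 179.6, 159.8, 159 and 124 in transgenic lung and 154, 141, 107, 136 and 135 in non-transgenic lung. The unaltered groups overlapped and each dysplasia array was far above them, at a ratio of 3.60 against transgenic lung (log2 change 1.55, standard error 0.14, adjusted p = 1.65e-05, limma) and 4.14 against non-transgenic lung. Kif11, the motor that pushes the spindle poles apart, averaged 222 ± 66.1 in dysplasia, 82.4 ± 26.0 in transgenic lung and 69.5 ± 14.3 in non-transgenic lung. Kif20a, a motor of the central spindle, averaged 221 ± 35.4 in dysplasia, 71.6 ± 28.9 in transgenic lung and 45.8 ± 19.6 in non-transgenic lung. Kif2c, which takes microtubule ends apart at the centromere, ranged from 131 to 352 in dysplasia and from 68.5 to 137 in transgenic lung, so these groups overlapped although the gene was called (adjusted p = 0.0131). Kif4, a motor on chromosome arms below the signal limit, read 92.6 to 140.5 in dysplasia, 56.0 to 110.0 in transgenic lung and 41.6 to 128 in non-transgenic lung, and was not called in the fit without a limit (adjusted p = 0.0627 and 0.343).

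The 4 genes of spindle bundling and cytokinesis were higher in dysplasia in both comparisons. Cep55, which recruits the proteins that cut the last bridge between daughter cells, gave 638, 975, 848, 732 and 814 in dysplasia, 216, 342, 249, 273 and 186 in transgenic lung and 174, 168, 137, 157 and 193 in non-transgenic lung. All dysplasia arrays lay above all others, at a ratio of 3.16 against transgenic (log2 change 1.50, standard error 0.15, adjusted p = 2.74e-05, limma) and 4.84 against non-transgenic lung (log2 change 1.97, standard error 0.12, adjusted p = 4.72e-07). Prc1, which bundles microtubules of the central spindle, averaged 505 ± 84.0 in dysplasia, 191 ± 36.9 in transgenic lung and 163 ± 6.61 in non-transgenic lung. Nusap1, which binds spindle microtubules near chromosomes, averaged 657 ± 120.2 in dysplasia, 362 ± 82.7 in transgenic lung and 275 ± 42.1 in non-transgenic lung. Racgap1, the partner of Kif23 in centralspindlin, averaged 245 ± 39.6 in dysplasia, 146 ± 8.04 in transgenic lung and 129 ± 18.7 in non-transgenic lung, a smaller log2 change (0.58 against transgenic and 0.72 against non-transgenic lung) than that of Kif23, which was not tested as a difference. A second Racgap1 probe set above the limit gave log2 changes of 0.69 and 1.07, so the size of the Racgap1 change depends on the probe set.

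**Figure D3:**
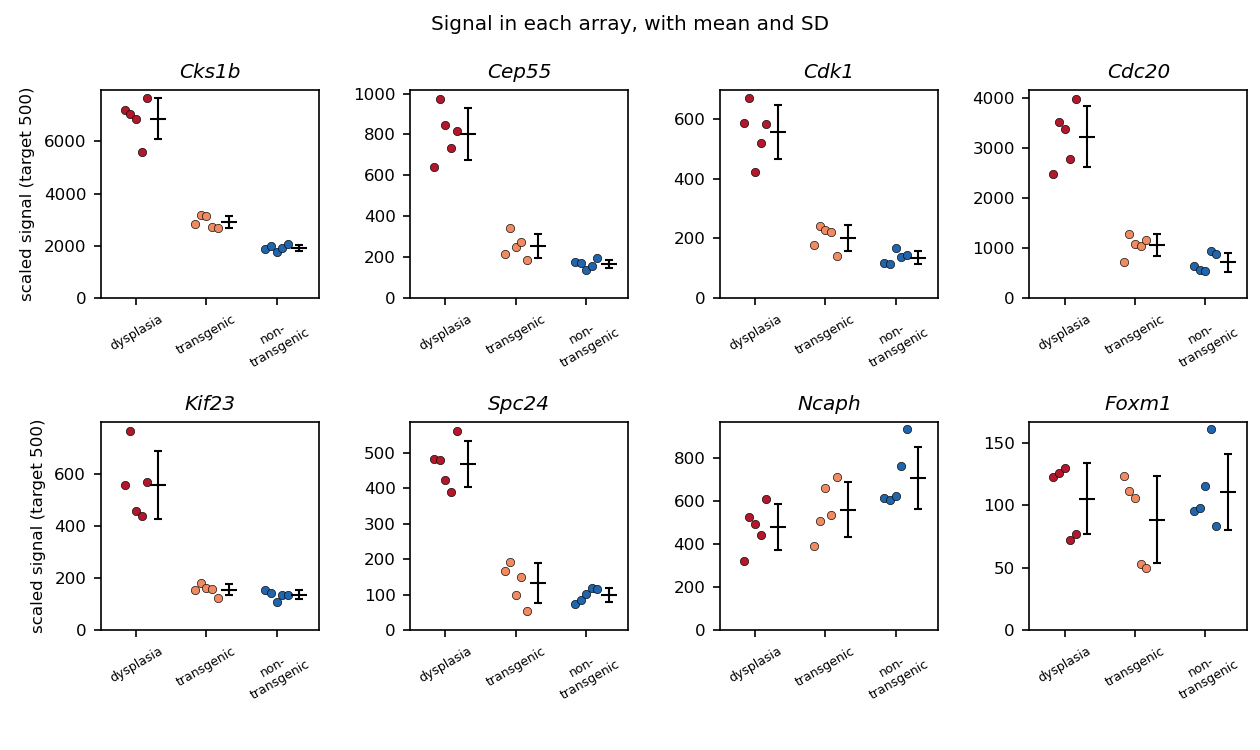
Scaled signal (vertical axis, target 500) of 8 mitosis genes in each array, with dysplasia, transgenic and non-transgenic lung from left to right and the mean with its SD in black beside each group. In Cks1b, Cep55, Cdk1, Cdc20, Kif23 and Spc24 the 5 dysplasia arrays lie above all others, and in Ncaph and the Foxm1 probe set with the highest mean the groups overlap.

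Chromosome structure was the group in which the genes went different ways. Top2a, the topoisomerase that untangles sister chromatids, averaged 894 ± 152 in dysplasia, 422 ± 78.1 in transgenic lung and 338 ± 56.4 in non-transgenic lung, and Mki67, the coat protein of mitotic chromosomes used in pathology as the Ki-67 marker of cycling cells, 1297 ± 324 in dysplasia, 696 ± 71.7 in transgenic lung and 496 ± 111 in non-transgenic lung. Smc4, the core ATPase subunit of both condensins, which compact chromosomes, averaged 3290.2 ± 441 in dysplasia, 2172 ± 182 in transgenic lung and 1956 ± 103 in non-transgenic lung, and Ncapd2, a subunit of condensin I, 286 ± 14.3 in dysplasia, 176 ± 15.7 in transgenic lung and 147 ± 26.6 in non-transgenic lung. These 4 were higher in dysplasia in both comparisons. Ncaph, another subunit of condensin I, gave 324, 528, 492, 442 and 611 in dysplasia, 391, 506, 660.4, 535 and 711 in transgenic lung and 616, 603, 623, 762 and 937 in non-transgenic lung. Its values overlapped between dysplasia and both other groups, with the non-transgenic arrays tending to be the highest. Against non-transgenic lung it fell (log2 change -0.52, standard error 0.17, adjusted p = 0.0249, limma), and against transgenic lung its log2 change was -0.20 (95% interval -0.60 to 0.19, adjusted p = 0.438). The fall against non-transgenic lung was no longer called without dysplasia 4 (adjusted p = 0.0517), without non-transgenic 4 (0.0563) or without non-transgenic 5 (0.0549). A second Ncaph probe set gave a log2 change of -0.25 against non-transgenic lung (adjusted p = 0.422) and -0.31 against transgenic lung (adjusted p = 0.28).

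Foxm1 encodes a transcription factor that acts on many of the other mitosis genes late in the cycle. The array holds 4 Foxm1 probe sets, which did not go the same way. In the one with the highest mean, used for the counts, the signal was 122, 126, 129.9, 72.1 and 76.7 in dysplasia, 123, 111, 106, 52.6 and 49.6 in transgenic lung and 95.5, 97.8, 115, 161 and 83.7 in non-transgenic lung. All 3 groups overlapped widely, around the limit of 100. The log2 change was 0.18 against transgenic (95% interval -0.24 to 0.61, adjusted p = 0.52) and -0.05 against non-transgenic lung (95% interval -0.40 to 0.30, adjusted p = 0.832), intervals that leave room for a change in either direction. Another Foxm1 probe set, below the signal limit, read 78.8, 66.5, 75.0, 65.1 and 94.9 in dysplasia, 2.12, 6.50, 12.5, 14.7 and 3.44 in transgenic lung and 4.08, 5.70, 6.61, 10.7 and 4.19 in non-transgenic lung. Here every dysplasia array was far above every unaltered one, and in the fit without a limit this probe set was higher in dysplasia (log2 change 1.12, adjusted p = 2.05e-05 against transgenic lung, and 1.16, adjusted p = 2.83e-06 against non-transgenic lung, limma). The remaining 2 probe sets, also below the limit, were not called (adjusted p = 0.867 to 0.996 in both comparisons of dysplasia). Whether Foxm1 transcripts differed therefore depends on the probe set. Cdca3, which helps to remove the mitotic inhibitor Wee1, averaged 414 ± 103 in dysplasia, 170.2 ± 31.5 in transgenic lung and 137 ± 34.6 in non-transgenic lung and was higher in dysplasia in both comparisons.

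**Figure D4:**
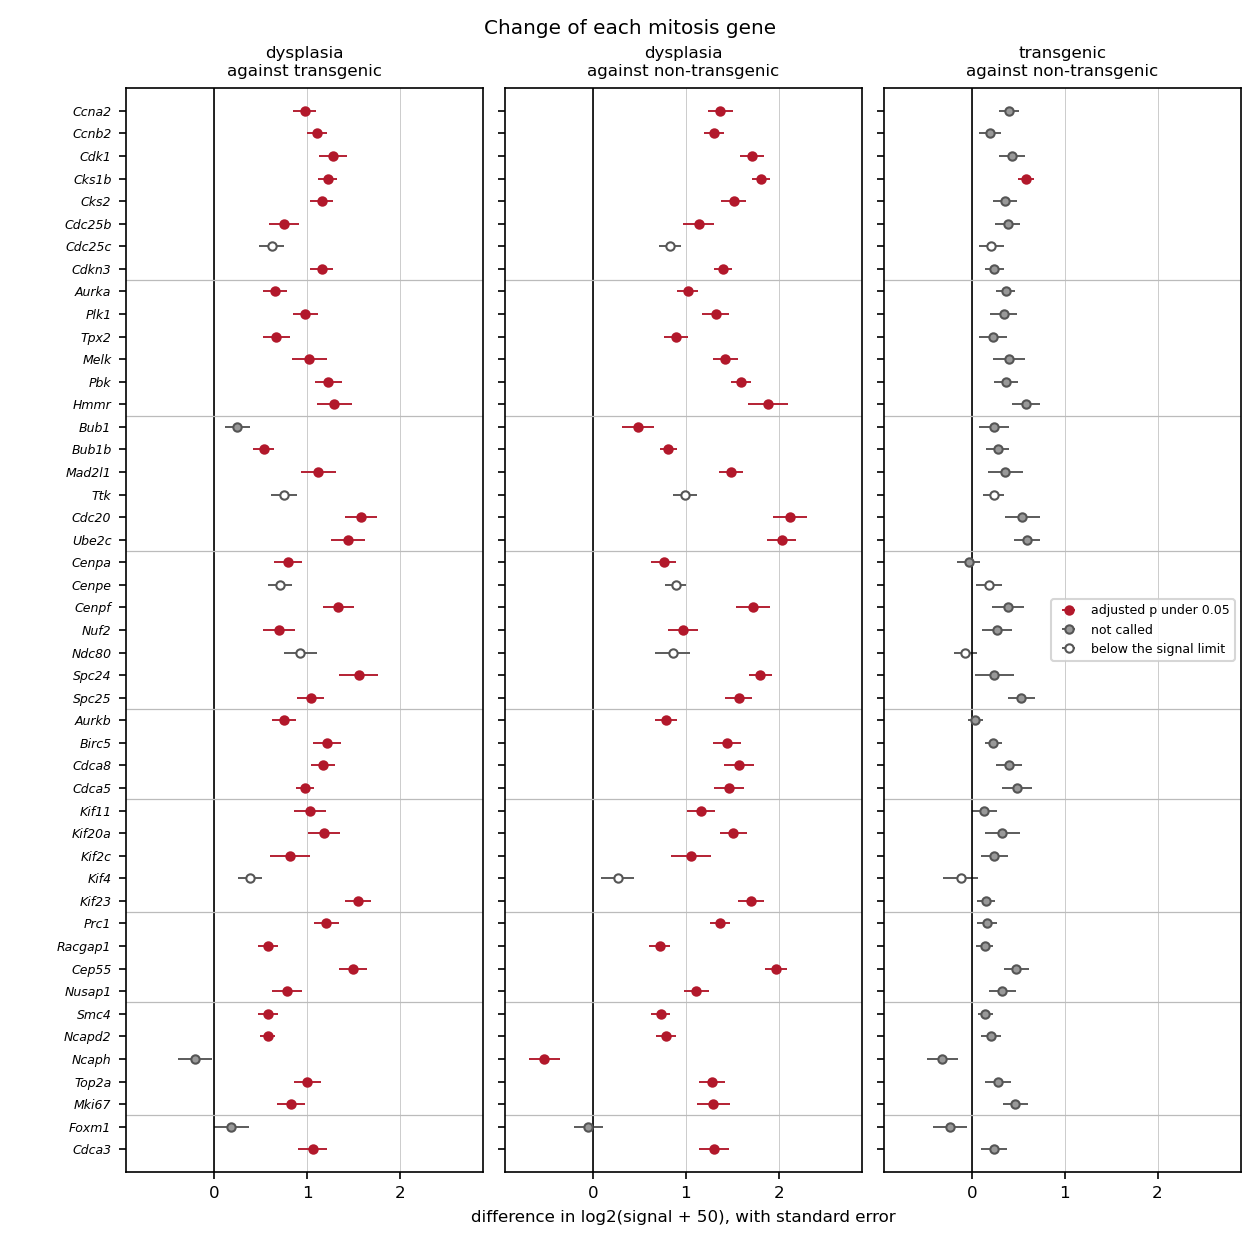
Difference in log2(signal + 50) with its standard error (horizontal axis) for each of the 47 measured mitosis genes (rows, lines separate functional groups) in the 3 comparisons of 5 arrays with 5. Red points passed an adjusted p under 0.05, grey points did not, and open points are genes below the signal limit, taken from the fit without it. Of the grey points against transgenic lung, Ncaph lies left of 0 and Bub1 and Foxm1 to the right.

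Between transgenic and non-transgenic lung the differences were small. The comparison sets tissue that looks unaltered side by side with and without the transgene, and it shares its samples with the other comparisons. Age differed between these groups, so it cannot be told apart from the transgene, and sex was uneven as well. Only Cks1b was higher (log2 change 0.58, standard error 0.08, adjusted p = 0.00757, limma), 0 genes were lower, and 1.17% of all tested probe sets were called higher and 0.0831% lower. Without a signal limit the count was also 1 higher and 0 lower, of 47 genes, beside 0.449% and 0.0355% of all probe sets. The Cks1b signal ran from 2695 to 3158 in transgenic lung and from 1752 to 2073 in non-transgenic lung, a ratio of 1.51. The second Cks1b probe set was also called, with a log2 change of 0.58 and an adjusted p of 0.0175. With the array number as a block 2 genes were called, Cks1b and Ube2c, and Ube2c had an adjusted p of 0.038 (limma). Transgenic and non-transgenic tissue came from different mice. Arrays of equal number still correlated at a mean of 0.45, beside -0.11 for different numbers, and 4 of the 10 arrays correlated best with their own number. The Ube2c call with the block therefore rests on numbers that do not mark an animal, and what arrays of equal number share was not tested.

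Most of the other genes were higher in transgenic lung without passing the adjusted threshold. Of the 42 tested genes 39 had a positive log2 change, and 22 were higher and 0 lower at an unadjusted p under 0.05, where 7.44% of all tested probe sets were higher and 4.68% lower. Over all tested probe sets 45.1% had a positive log2 change. The median log2 change was 0.30, beside -0.02 over all tested probe sets. After Cks1b the smallest p belonged to Ube2c (log2 change 0.59, standard error 0.14, adjusted p = 0.0806), Hmmr (log2 change 0.59, standard error 0.15, adjusted p = 0.113), Ccna2 (log2 change 0.40, standard error 0.11, adjusted p = 0.133) and Spc25 (log2 change 0.53, standard error 0.15, adjusted p = 0.135). Ncaph and Foxm1 went the other way, with -0.32 (adjusted p = 0.491) and -0.23 (adjusted p = 0.687). Every transgenic array was above every non-transgenic array in 4 of 47 genes, Aurka, Ccna2, Cks1b and Mki67. All 4 were among the 42 tested genes, to be read beside 3.23% of all tested probe sets. Without transgenic 5, Ube2c was called as well, with an adjusted p of 0.00797 (limma), and leaving out any other single array did not change the count. Leaving out 1 array at a time, transgenic 2 with its conflicting labels among them, gave a median log2 change of 0.24 to 0.35. The counts of positive changes and of unadjusted p were not made without transgenic 2.

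The dysplasia samples differed among themselves in level. Taking the median over the 47 genes of the log2 ratio to the non-transgenic mean, dysplasia 1 to 5 stood at 1.01, 1.47, 1.30, 1.08 and 1.41. Dysplasia 5 had the highest signal of its group in 24 genes and dysplasia 2 in 18, while dysplasia 1 was lowest in 22 and dysplasia 4 in 18. The same median was 0.13, 0.52, 0.29, 0.40 and 0.14 for transgenic 1 to 5, so even the highest transgenic array was below the lowest dysplasia array. Transgenic 2, the array with conflicting labels, was the highest of its group in 31 of 47 genes. Non-transgenic 1 to 5 stood at -0.09, -0.11, -0.12, 0.18 and 0.10, with non-transgenic 4 the highest in 25 genes.

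Some genes were covered by further probe sets above the signal limit, 11 for 10 of the genes. Of these 7 were higher in dysplasia than in transgenic lung and 8 higher than in non-transgenic lung, and 0 were lower in either. The second probe set of Bub1b had a log2 change of 0.49 against transgenic lung with an adjusted p of 0.0511. The other probe sets that were not called belong to Smc4, whose 2 further sets had standard errors of 0.59 to 0.73 in the 3 comparisons, and to Ncaph. A further 40 probe sets, of 25 genes, were at or below the limit, and in the fit without it 9 were higher in dysplasia than in transgenic lung, 11 were higher than in non-transgenic lung and 0 were lower in either.

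Of the wider mitosis programme, a list of 64 further genes, 62 were measured, and without a signal limit 33 were higher in dysplasia than in transgenic lung and 0 lower, and 37 higher and 1 lower than in non-transgenic lung. Of all probe sets in that fit 8.04% were higher and 9.82% lower against transgenic, and 10.7% and 14.1% against non-transgenic lung. Among the 44 above the limit the counts were 26 and 1 against transgenic lung, beside 15.3% and 17.9% of all tested probe sets. Against non-transgenic lung they were 29 and 1, beside 20.7% and 23.3%. Psrc1, which encodes a microtubule-binding protein of the spindle, averaged 1347 ± 256 in dysplasia, 226 ± 26.7 in transgenic lung and 147 ± 56.2 in non-transgenic lung, with log2 changes of 2.32 and 2.85. Anln, which encodes the cytokinesis scaffold anillin, averaged 659 ± 101 in dysplasia, 314 ± 66.8 in transgenic lung and 196 ± 47.6 in non-transgenic lung, and Trip13, an ATPase that turns over Mad2 complexes, 284 ± 34.0 in dysplasia, 173 ± 33.6 in transgenic lung and 115 ± 13.9 in non-transgenic lung. The 1 lower gene above the limit in each comparison was Pttg1, named after its values were seen, which encodes securin, the inhibitor of the enzyme that cuts sister chromatid cohesion (log2 change -0.49 against transgenic and -0.39 against non-transgenic lung).

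S phase genes, which copy the DNA before mitosis, were 31 measured of 32 listed. Without a limit 16 were higher and 0 lower against transgenic lung, beside 8.04% and 9.82% of all probe sets. Against non-transgenic lung 23 were higher and 1 lower, beside 10.7% and 14.1%. The 1 was Orc1 of the origin recognition complex (log2 change -0.65), below the signal limit and named after its values were seen. Among the 28 above the limit 19 were higher against transgenic and 23 against non-transgenic lung, beside 15.3% and 20.7% of all tested probe sets. In either comparison 0 were lower, beside 17.9% and 23.3%. Without a limit the median log2 change was 0.43 and 0.54, compared with 0.98 and 1.30 for the 47 mitosis genes. Tk1, the thymidine kinase of S phase, averaged 369 ± 52.4 in dysplasia, 142 ± 40.6 in transgenic lung and 94.9 ± 23.3 in non-transgenic lung. Rfc5, a subunit of the clamp loader, averaged 644 ± 55.6 in dysplasia, 386 ± 26.2 in transgenic lung and 306 ± 31.8 in non-transgenic lung, and Uhrf1, which guides methylation of new DNA, 411 ± 83.7 in dysplasia, 208 ± 54.1 in transgenic lung and 129.8 ± 31.7 in non-transgenic lung.

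Regulators of cell cycle transcription were called in both directions, in numbers too small to set them apart from all probe sets. Of 15 genes for DREAM, E2F and pocket proteins, 2 were higher and 2 lower against transgenic lung, beside 8.04% and 9.82% of all probe sets, and 3 higher and 1 lower against non-transgenic lung, beside 10.7% and 14.1%, in the fit without a limit. The lower ones, named after their values were seen apart from Rb1, were the activators E2f1 and E2f2 against transgenic lung (log2 change -0.64 and -0.49) and Rb1 against non-transgenic lung. Higher in both were E2f3 and E2f8, and E2f7, a repressor, against non-transgenic lung. E2f8, a repressor of the E2F family expressed in cycling cells, averaged 277 ± 88.4 in dysplasia, 143 ± 33.7 in transgenic lung and 95.6 ± 35.3 in non-transgenic lung. E2f3, an activator, averaged 392 ± 37.9 in dysplasia, 278 ± 44.0 in transgenic lung and 258 ± 40.4 in non-transgenic lung. Rb1, which encodes the retinoblastoma protein that restrains E2F, averaged 1116 ± 243 in dysplasia, 1713 ± 484 in transgenic lung and 1963 ± 242 in non-transgenic lung. In the fit with the signal limit its log2 change was -0.81 against non-transgenic lung (adjusted p = 0.00165, and 0.00288 without a limit, limma) and -0.57 against transgenic lung (adjusted p = 0.0832). Of the 13 genes above the limit 2 were higher and 2 lower against transgenic lung, beside 15.3% and 17.9% of all tested probe sets. Against non-transgenic lung 3 were higher and 2 lower, beside 20.7% and 23.3%.

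Subunits of the anaphase-promoting complex, which is present throughout the cell cycle, were listed together with its activator Fzr1 and were also called in both directions. Of 14, 3 were higher and 2 lower against transgenic lung and 4 higher and 3 lower against non-transgenic lung, to be read beside the same shares of all probe sets, with median log2 changes of 0.09 in both. Anapc4 averaged 2669 ± 160.1 in dysplasia, 1987 ± 61.6 in transgenic lung and 1922 ± 247 in non-transgenic lung, Cdc23 453 ± 56.7 in dysplasia, 604 ± 92.8 in transgenic lung and 705 ± 96.8 in non-transgenic lung and Anapc11 1946 ± 142 in dysplasia, 2334 ± 93.1 in transgenic lung and 2482 ± 95.2 in non-transgenic lung, the first higher in dysplasia and the other two lower in both comparisons. Named after their values were seen, the other called genes of this list were Anapc7 and Cdc26, higher against transgenic lung, and Anapc7, Anapc15 and Fzr1, higher, and Anapc1, lower, against non-transgenic lung.

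**Figure D5:**
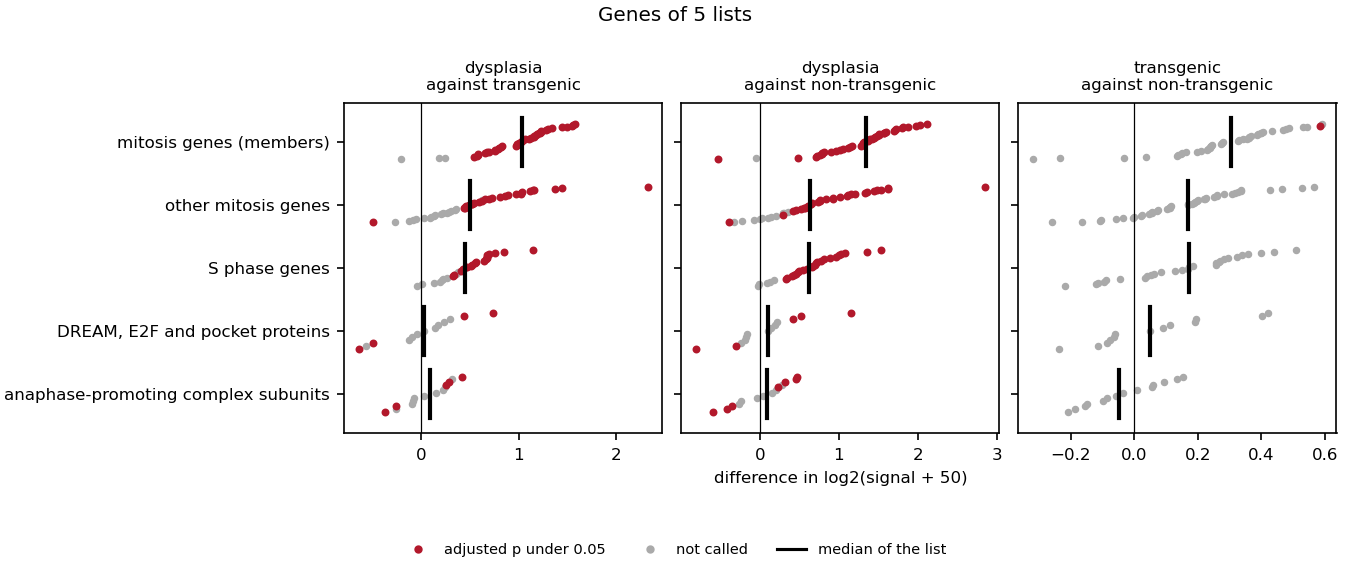
Log2 change of each gene above the signal limit (points) in 5 lists for the 3 comparisons, with red for an adjusted p under 0.05 and a black line at the median of each list. Against transgenic lung the median is 1.03 for the 42 mitosis genes, 0.50 for 44 other mitosis genes and 0.45 for 28 S phase genes. It is 0.03 for 13 DREAM, E2F and pocket protein genes and 0.09 for 14 genes of the anaphase-promoting complex, its activator Fzr1 included.

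Some other properties of the samples moved with the groups. The counts of called markers stand beside 15.3% of all tested probe sets called higher and 17.9% lower against transgenic lung. Against non-transgenic lung these shares were 20.7% and 23.3%. Too few type 2, club and fibroblast markers were called to set these lists apart from such shares. Alveolar type 2 markers were present in all groups, with 9 of 9 measured markers above the limit and a summed signal of 146810 to 246334 in dysplasia, 136995 to 229992 in transgenic lung and 126738 to 171986 in non-transgenic lung. Of these 9 markers 0 were called against transgenic lung, and 2 were higher and 0 lower against non-transgenic lung. Alveolar type 1 markers were lower in 4 of 7 genes and higher in 1 in both comparisons, with sums of 56227 to 86785 in dysplasia, 69113 to 112491 in transgenic lung and 71771 to 96031 in non-transgenic lung. Of 4 club cell markers 2 were higher against transgenic lung, Scgb3a2 (log2 change 1.20) and Cyp2f2 (log2 change 1.24), and 0 were called against non-transgenic lung. Endothelial markers were lower in dysplasia in 8 of 8 genes in both comparisons, with sums of 7754 to 12638 in dysplasia, 31624 to 40844 in transgenic lung and 33103 to 45778 in non-transgenic lung. B cell markers were lower in 4 of 4 genes, neutrophil markers in 3 of 3, NK cell markers in 2 of 2 and red cell precursor markers in 2 of 2 genes above the limit in both comparisons, and fibroblast markers in 2 of 6. Smooth muscle markers were lower in 3 of 4 genes against transgenic and 4 of 4 against non-transgenic lung. The 1 ciliated cell marker above the limit was higher in both comparisons. Macrophage sums were 29695 to 35597 in dysplasia, 37635 to 44346 in transgenic lung and 27083 to 39782 in non-transgenic lung, with Chil3 alone averaging 15544 in dysplasia, 19221 in transgenic lung and 16579 in non-transgenic lung. The 10 macrophage markers went both ways, 3 higher and 6 lower against transgenic and 4 higher and 2 lower against non-transgenic lung. T cell sums overlapped between the groups. No measured marker of these lists had a mean signal of 0. The part of these differences in the mitosis result was not tested.

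Sex was uneven between the groups as well, and a measure of RNA quality varied widely within each group. Male transcripts without Xist were read in 3 dysplasia, 4 transgenic and 1 non-transgenic arrays, and with Xist as a covariate 39 mitosis genes were higher in dysplasia than in transgenic lung and 40 higher than in non-transgenic lung. Intact RNA gives actin signal at its 5′ end as well as at its 3′ end, and the 5′ signal came to a median of 57.1% of the 3′ signal in dysplasia, 38.9% in transgenic lung and 31.0% in non-transgenic lung. The groups overlapped widely, with single arrays at 25.1% to 75.2% in dysplasia, 12.5% to 63.4% in transgenic lung and 14.1% to 72.8% in non-transgenic lung. With the 5′ share of each array as a covariate the counts were 39 and 40 too. Between transgenic and non-transgenic lung this covariate gave 3 genes, Cks1b, Hmmr and Ube2c.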

How the data were processed

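The authors extracted RNA from laser-microdissected lung, amplified and hybridised it to Affymetrix Mouse Genome 430 2.0 arrays and computed 1 intensity per probe set with GCOS, whose version was not found in the sources used here, scaled to a target signal of 500. These deposited intensity values were used on their linear scale. Of 45037 probe sets left after 64 controls, 34945 carry 1 gene symbol in the platform annotation, 932 several and 9160 none. Probe sets with a mean above 100 over the 15 arrays (21658) were tested.

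A comparison took the 10 arrays of its 2 groups, without pairing, as the methods did. limma 3.58.1 (R 4.3.3) was applied to log2(signal + 50), with Benjamini-Hochberg adjustment over all tested probe sets and a threshold of 0.05. Precision is limited by the 5 arrays per group, and the fit was tested on simulated data. Where samples share an animal, p-values of an unpaired fit do not use that. The mitosis genes, the other lists and the tests were chosen with earlier results of these data known. Values in every array were given, for each comparison, for the 5 tested mitosis genes with the smallest p and up to 2 with the largest change against the majority. From each other list up to 3 genes with the smallest p were named. Promoters were chosen by smallest p. Raw scans were not used here.

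Arrays of the 3 groups carry numbers 1 to 5. The methods state that dysplasia and transgenic tissue came from the same mice, and the labels do not tie numbers to mice. Deviations from the group means, over all tested probe sets, correlated at 0.22 to 0.77 for equal numbers in dysplasia and transgenic arrays and at 0.13 to 0.79 in transgenic and non-transgenic arrays, above 0.1 in every pair, the limit for taking the numbers as pairs in the block. Sex transcripts did not match within every pair. Transgenic 4 read as male and dysplasia 4 as female and male at once, in the pair with 0.22, and transgenic 2, 4 and 5 read as male where non-transgenic 2, 4 and 5 read as female. In dysplasia and non-transgenic arrays number 4 had -0.0037, under that limit, and the other numbers had 0.26 to 0.73. Equal numbers averaged 0.41 there and different numbers -0.10. With number 4 under the limit, the numbers were not taken as pairs there. Transgenic and non-transgenic tissue came from different mice, so an equal number does not mark an animal there, and the block is given only as an alternative. Because equal numbers correlated between different mice too, the correlation alone does not show that a number marks an animal in dysplasia and transgenic arrays. Alternatives changed the offset, normalization, signal limit, probe set choice, groups in the fit, block, covariates or arrays used.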

Additional observations from a re-analysis of the deposited data

Results flagged for a closer look

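In 141 groups of 5 arrays, 47 genes in 3 groups, 9 single arrays stood apart from the rest of their group by a gap of over 0.71 of the group's range, and chance gives about 1 such group in 20. In dysplasia, Hmmr was 862 in dysplasia 5, with 353 to 473 in the other arrays, and Ccnb2 was 453 in dysplasia 4, with 544 to 574 in the others. In transgenic lung, Ube2c was 269 in transgenic 5, with 429 to 458 in the others, Cdca5 was 229 in transgenic 2, with 181 to 195, and Cdc25c, below the signal limit, was 44.6 in transgenic 1, with 13.4 to 18.0. In non-transgenic lung, Cks2 was 1343 in non-transgenic 5, with 904 to 968 in the others, and Cenpa was 257 in non-transgenic 2, with 331 to 355. Kif11 was 94.2 in non-transgenic 2, with 58.6 to 68.1 in the others, and Kif20a was 79.4 in non-transgenic 4, with 31.7 to 44.7.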

How the results depend on the processing

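Direction and call of the mitosis genes in dysplasia held under most alternatives. Over all settings but the higher signal limit, 37 to 43 genes were higher against transgenic lung and 39 to 43 against non-transgenic lung, and a mean signal above 200 left fewer genes to test, of which 27 and 28 were higher. Leaving out 1 array at a time gave 39 to 40 higher and 0 lower against transgenic lung, 39 to 40 higher and 0 to 1 lower against non-transgenic lung, and 1 to 2 higher and 0 lower in transgenic against non-transgenic lung. The median log2 change was then 0.96 to 1.10, 1.29 to 1.41 and 0.24 to 0.35. The median grew without an offset, to 1.19 against transgenic and 1.59 against non-transgenic lung, and to 1.51 against non-transgenic lung with an offset of 16. The 1 lower gene against non-transgenic lung, Ncaph, was not called with Xist as a covariate (0 lower) or with the most variable probe set per gene (0 lower). In transgenic against non-transgenic lung, quantile normalization gave 3 higher genes, the actin ratio as a covariate 3, and the replicate block 2. With the replicate block 40 genes were higher against transgenic lung, Bub1 being added (adjusted p = 0.0405), and the block changed no other call there. Against non-transgenic lung, where the numbers were not taken as pairs, the same term gave 40 higher and 1 lower, as without it. Of the 10 arrays in each comparison, 10 correlated best with their own number in dysplasia and transgenic lung, 5 in dysplasia and non-transgenic lung and 4 in transgenic and non-transgenic lung. Of 1797 values of single called genes under the alternatives, 17, in 4 genes (Bub1, Bub1b, Ncaph and Smc4), lost the call and 0 changed direction. Bub1b and Smc4 lost it with the most variable probe set. The Smc4 log2 changes were then 0.62 against transgenic and 0.58 against non-transgenic lung, with standard errors of 0.68 and 0.73, against 0.58 and 0.73 in the probe set reported. Bub1 in addition was called against transgenic lung without dysplasia 1 (adjusted p = 0.0418). Leaving out dysplasia 4 and transgenic 2 together was chosen after seeing the data. Signals near 100 lie close to the background of the arrays, which limits the size of ratios in dim genes.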
